A study of Homo sapiens with 8 samples.

Results

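The difference between 2 responses of human lung cells was measured for every gene: the response to photochemically altered (PCA) urban pollutants, less the response to the primary pollutants they were made from. Each response is the log2 signal of exposed cells less that of their own control, so the difference is (PCA minus evening control) minus (primary minus morning control). It was computed over all 8 arrays for 17540 of 18377 genes with a symbol of their own, the other 837 never reaching a signal of 30. Of these, 77 genes were called, which required a p under 0.05 after Benjamini-Hochberg adjustment together with a difference of 1.5-fold or more. They make up 0.439% of the genes tested. The difference was higher after the PCA pollutants for 16 of them (0.0912% of genes tested) and lower for 61 (0.348%). Counted as array probe sets, 40 of which had no gene of their own, 52 were called higher and 65 lower.

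The cells were A549, an epithelial line from a human lung adenocarcinoma, grown in F-12K medium and exposed at an air-liquid interface for 4 hr, with RNA taken 9 hr after exposure. The primary group breathed a fresh mixture of urban hydrocarbons and nitrogen oxides in the morning, and the PCA group the same mixture in the evening, after a day of sunlight had aged it. The morning and the evening control each received humidified incubator air alongside. There were 2 arrays in each of the 4 groups, from a single line and a single exposure run per group, so the errors measure the spread within a run, and mixture, time of day and run cannot be told apart. Keratins of the simple epithelium were high on every array, with KRT18 between 13.50 and 14.08 and KRT8 between 13.49 and 13.70 on the log2 scale. Most markers of the alveolar type II cell, the cell type this line is used to model, were low. SFTPC lay between 6.003 and 6.51 and NKX2-1 between 5.15 and 5.84. However, ABCA3 (7.55 to 7.77) was above the median of all genes tested (7.52) and SFTPD (7.15 to 7.43) just below it. SFTPA1 and SFTPA2 were not tested. Log2 signals on the PCA arrays were less widely spread (SD 1.98 and 1.99) than on the 4 control arrays (2.07 on each). In this spread, primary replicate 1 (2.04) lay nearer to the PCA arrays than primary replicate 2 (2.06) did.

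Sunlight turns hydrocarbons and nitrogen oxides into ozone, aldehydes and organic nitrates, which react with the surface lining of airway cells. In injured epithelium, ligands of the epidermal growth factor receptor are shed, mitogen-activated kinases are switched on, and AP-1, a transcription factor built from JUN and FOS proteins, induces chemokines and repair genes. The same growth signals hold FOXO factors out of the nucleus, and with them the growth arrest and starvation genes that FOXO proteins induce.

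The responses differed mainly in size. All 77 called genes had the larger response to the PCA pollutants. In 54 of them (70.1%) both responses had the same sign and in 23 (29.9%) opposite signs. Of all genes tested, 49.9% had the same sign and 25.0% opposite signs with the larger PCA response. With the larger primary response, 15.7% had the same sign and 9.44% opposite signs. The primary response was smaller than 0.2 on the log2 scale in 53 of the 77. It had an unadjusted limma p under 0.05 in 30 of the 77, against 7.87% of genes tested. Over all genes tested, the PCA response was the larger in size for 13128 (74.8%), with a median size of 0.17 against 0.08 for the primary response. On its own, the PCA response was called for 616 genes (3.51%), among them 71 of the 77. limma called 0 genes (0%) for the primary response, with 1380 at an unadjusted p under 0.05 and 6 called under a trended and robust prior. Both PCA arrays lay beyond all 6 other arrays for each of the 77 genes, an arrangement that held for 40.8% of all genes. PCA and evening control arrays were separate in all 77 (68.2% of all genes), primary and morning control arrays in 58 of them (38.8%), evening and morning control arrays in 68 (41.7%), and PCA and primary arrays in 77 (55.2%).

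**Figure D1:**
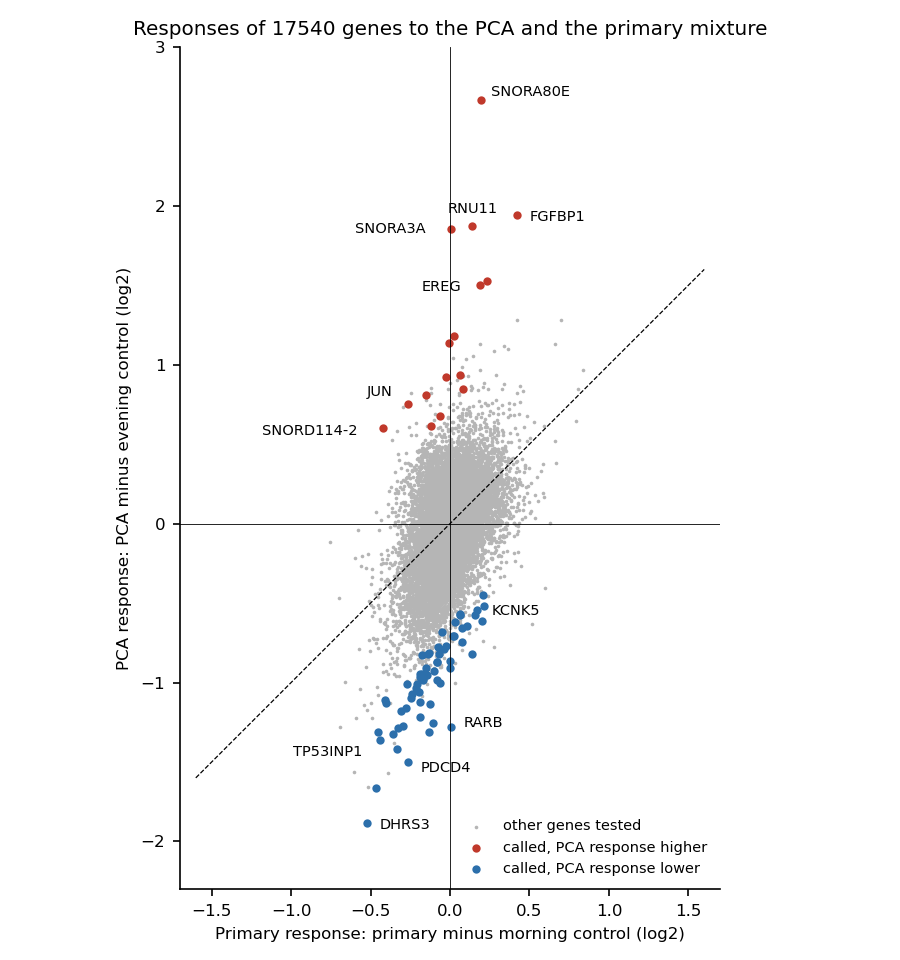
Response of each gene to the PCA pollutants (PCA minus evening control, y axis, log2) against its response to the primary pollutants (primary minus morning control, x axis, log2), with 1 point a gene. The 16 red genes (called higher) and 61 blue genes (called lower) lie far from the dashed line of equal responses, and they spread along the y axis (from -1.88 to 2.67) much more than along the x axis (from -0.52 to 0.42).

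Each of the 77 differences kept its sign in all 16 ways of taking 1 array from each group. The 77 were chosen on these same arrays, so this and the left-out fits below describe them and are no separate support. The calls themselves rested on having all 8 arrays. With 1 array left out, which leaves 3 residual degrees of freedom in place of 4, limma called 3 genes without morning control replicate 1 (EREG, RNU11 and SNORA3A), 2 without PCA replicate 2 (RNU11 and SNORA3A), and 0 without any of the other 6 arrays. All 77 differences stayed past 1.5-fold, and at an unadjusted p under 0.05, in each of these 8 fits. Primary replicate 1 had the less widely spread signals of the 2 primary arrays. Without it, the median difference over all genes was 0.0048, against -0.013 over all 8 arrays. A trended and robust prior called 278 genes, the 77 among them, whereas no filter on low signal left 16 and a test against the 1.5-fold limit itself left 0. In the account that follows, a value written with ± is a log2 difference with its standard error from limma (2 arrays a group), and the 4 pairs of values before it are log2 signals on replicates 1 and 2.

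Short structured RNAs had the largest positive differences. SNORA80E and SNORA3A are H/ACA small nucleolar RNAs, which guide pseudouridine formation on other RNAs, RNU11 is the U11 RNA of the minor spliceosome, and RPPH1 is the RNA of ribonuclease P. SNORA80E stood at 7.35 and 7.70 in the morning controls, 7.82 and 7.62 after the primary pollutants, 7.60 and 7.66 in the evening controls, and 10.55 and 10.05 after the PCA pollutants. The primary arrays overlapped both controls, while the PCA arrays were far above everything else. The difference was 2.47 ± 0.25 (adjusted p = 0.0230). SNORA3A read 8.87 and 8.96 in the morning controls, 8.91 and 8.94 after the primary pollutants, 8.75 and 8.82 in the evening controls, and 10.74 and 10.54 after the PCA pollutants. Here too the primary arrays fell among the morning controls. Its difference was 1.85 ± 0.12 (adjusted p = 0.0125). For RNU11, the morning controls were at 7.17 and 7.23, the primary arrays at 7.37 and 7.30, the evening controls at 7.003 and 6.93, and the PCA arrays at 8.94 and 8.75. The primary arrays were slightly above the morning controls without overlap and the evening controls were the lowest of all, so that the difference (1.74 ± 0.12, adjusted p = 0.0125) exceeded the gap between the exposed groups (1.51). RPPH1 differed by 1.15 ± 0.14 (adjusted p = 0.0359) and SNORD114-2, a C/D box small nucleolar RNA of an imprinted cluster, by 1.02 ± 0.12 (adjusted p = 0.0332).

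The families of these RNAs did not all move in the same direction. Of 61 SNORA genes, 2 were called higher and 0 lower, 19 had a positive and 1 a negative difference at an unadjusted p under 0.05, and the median was 0.15 (0.098 without primary replicate 1). Of 86 SNORD genes, 1 was called higher and 0 lower, 3 and 10 had an unadjusted p under 0.05, and the median was -0.17, which was -0.32 without primary replicate 1, -0.03 without primary replicate 2 and -0.095 without PCA replicate 2. Among 34 small nuclear and other structured RNAs, 2 were called higher and 0 lower, 6 and 1 had an unadjusted p under 0.05, and the median was 0.08. That median was 0.035 without primary replicate 1, 0.14 without morning control replicate 1 and 0.19 without PCA replicate 2, and between 0.038 and 0.13 over 4 scalings. SCARNA17, a guide RNA of the Cajal body, was at -1.05 ± 0.18 (adjusted p = 0.0622). Over all genes tested the median difference was -0.01, with 1087 positive and 1997 negative at an unadjusted p under 0.05. Members of these families that share sequence may share probe signal.

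Growth factor signals formed the next group of higher genes. EREG encodes epiregulin, a ligand of the epidermal growth factor receptor, and FGFBP1 a secreted carrier that frees fibroblast growth factors from the matrix. EREG was at 8.70 and 8.98 in the morning controls, 9.06 and 9.00 with the primary pollutants, 8.65 and 8.70 in the evening controls, and 10.19 and 10.16 with the PCA pollutants. The primary arrays lay just above the morning controls and the PCA arrays more than 1 log2 unit above all others. Its difference was 1.31 ± 0.14 (adjusted p = 0.0248). FGFBP1 had 7.83 and 7.79 in the morning controls, 8.27 and 8.20 after the primary pollutants, 7.31 and 7.10 in the evening controls, and 9.02 and 9.27 after the PCA pollutants. No groups overlapped, with the evening controls lowest and the PCA arrays highest. The difference reached 1.52 ± 0.15 (adjusted p = 0.0230), of which the exposed arrays alone gave 0.91. Among 18 EGF receptor ligands and MAPK feedback genes, EREG was the 1 called, 8 had a positive and 0 a negative difference at an unadjusted p under 0.05, and the median was 0.19 (0.29 without primary replicate 1). Others on the list were HBEGF (0.50 ± 0.12, adjusted p = 0.104) and TGFA (0.47 ± 0.14, adjusted p = 0.148), both receptor ligands, and SPRY4 (0.38 ± 0.11, adjusted p = 0.143), a feedback inhibitor.

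JUN and CXCL8 represented AP-1 and the chemokines. JUN, a core subunit of AP-1, was at 7.15 and 7.23 in the morning controls, 6.90 and 6.96 with the primary pollutants, 7.29 and 7.28 in the evening controls, and 8.09 and 7.98 with the PCA pollutants. Against their own controls, the primary arrays were lower and the PCA arrays higher, with no overlap in either comparison. The difference was 1.01 ± 0.11 (adjusted p = 0.0230), made of a PCA response of 0.75 and a primary response of -0.26 (unadjusted p = 0.0086). CXCL8, the neutrophil attractant interleukin-8, was at 7.16 and 7.19, then 7.10 and 7.13, then 7.12 and 7.20, and at 7.80 and 7.87 on the PCA arrays, in the same order of groups. Its other 6 arrays lay between 7.10 and 7.20, below both PCA arrays. The difference was 0.74 ± 0.10 (adjusted p = 0.0359). Of 20 immediate early and AP-1 genes, JUN alone was called, 6 were positive and 0 negative at an unadjusted p under 0.05, and the median was 0.23, with FOSL1 at 0.45 ± 0.11 (adjusted p = 0.117) and ATF3 at 0.47 ± 0.13 (adjusted p = 0.144). Of 11 chemokines, CXCL8 alone was called, 3 were positive and 0 negative at an unadjusted p under 0.05, and the median was 0.13. It was 0.069 without morning control replicate 2, 0.22 without morning control replicate 1 or PCA replicate 1, and 0.22 after quantile normalization. CXCL5, another neutrophil attractant, was at 0.86 ± 0.17 (adjusted p = 0.0821).

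The promoter windows of both genes (RefSeq, GRCh38.p14, 250 bases before to 50 after a transcription start) are shown because they hold AP-1-type letters. For CXCL8 (chr4:73740319-73740618, plus strand) capitals mark an exact AP-1 match, TGANTCA, at positions -137 to -131 from the start. For JUN (chr1:58783998-58784297, minus strand) they mark TGACATCA at -67 to -60 (a variant of the cyclic AMP response element), which was searched only after this window had been read.
CXCL8: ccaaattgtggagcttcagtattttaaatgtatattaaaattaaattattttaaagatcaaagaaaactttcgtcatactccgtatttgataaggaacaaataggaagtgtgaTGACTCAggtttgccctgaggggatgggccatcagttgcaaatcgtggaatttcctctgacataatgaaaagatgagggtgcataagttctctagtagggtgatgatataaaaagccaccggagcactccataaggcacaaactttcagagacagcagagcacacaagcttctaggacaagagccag
JUN: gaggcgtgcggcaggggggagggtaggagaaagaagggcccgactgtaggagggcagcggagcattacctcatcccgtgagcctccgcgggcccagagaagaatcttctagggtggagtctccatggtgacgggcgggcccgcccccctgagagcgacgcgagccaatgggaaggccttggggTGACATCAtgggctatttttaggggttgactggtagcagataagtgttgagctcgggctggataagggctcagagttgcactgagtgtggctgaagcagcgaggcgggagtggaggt
The AP-1 letters read the same on both strands. They occurred in a window of 3 of the 9 higher genes that have one (33.3%; ANKRD22, CXCL8 and DCLK1), of 10 of 53 lower genes (18.9%) and of 1077 of 13639 genes tested (7.9%). TGACATCA, on either strand, was found for 1 higher gene, JUN, for 2 lower genes (3.77%) and for 2.62% of genes tested. These shares are descriptions, and genes differ in how many windows they have.

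The remaining higher genes had little or no response to the primary pollutants. THBD, the thrombin receptor thrombomodulin, differed by 0.73 ± 0.10 (adjusted p = 0.0360), ANXA3, a calcium-dependent membrane-binding protein, by 0.87 ± 0.13 (adjusted p = 0.0464), and AP1S3, a subunit of a clathrin adaptor complex, by 0.77 ± 0.10 (adjusted p = 0.0359). PLEK2, of the pleckstrin family, was at 0.96 ± 0.13 and the kinase gene DCLK1 at 0.95 ± 0.13. GLIPR1 (1.14 ± 0.13) and ANKRD22 (1.29 ± 0.17) complete the group. THBD, ANXA3 and AP1S3 lie outside the rule for naming genes and were added once their values were known. Across the 16 higher genes the primary response ran from -0.42 to 0.42.

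Urokinase, laminin-332 and wound repair genes had the highest median of any list, 0.43 over 21 genes, yet 0 were called in either direction by limma. In this list 13 genes were positive and 1 negative at an unadjusted p under 0.05. PLAU, the urokinase protease, was at 8.82 and 8.97 in the morning controls, 9.03 and 8.88 after the primary pollutants, 8.82 and 8.84 in the evening controls, and 9.70 and 9.58 after the PCA pollutants. The first 6 arrays overlapped and the PCA arrays were above them. Its difference, 0.75 ± 0.13, had an adjusted p of 0.0602. TNS4, a focal adhesion protein, was at 0.91 ± 0.16 (adjusted p = 0.0622), SERPINE2, a protease inhibitor, at 0.80 ± 0.14 (adjusted p = 0.0659), and ITGA2, a collagen receptor subunit, at 0.54 ± 0.10 (adjusted p = 0.0718).

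On the lower side, FOXO target and growth arrest genes supplied the most called genes of any list, 8 of 29 lower and 0 higher, with a median difference of -0.38. Another 10 had a negative difference at an unadjusted p under 0.05, and 1 a positive one. Over all genes tested, 0.348% were called lower. The lists were drawn up with earlier results of these data known, so a rank among the lists is a description and no separate support. The 8 are PDCD4, which blocks translation initiation, TP53INP1, a stress-induced p53 partner, KLHL24, BCL2L11, the cell death protein BIM, YPEL2 and YPEL5, DEPTOR, an inhibitor of mTOR, and BCL6, a transcriptional repressor. PDCD4 was at 10.09 and 10.10 in the morning controls, 9.73 and 9.94 after the primary pollutants, 10.17 and 10.17 in the evening controls, and 8.55 and 8.79 after the PCA pollutants. Exposed arrays lay below their controls in both runs, by far more in the evening. The difference was -1.24 ± 0.15 (adjusted p = 0.0359). TP53INP1 read 8.65 and 8.68, then 8.33 and 8.34 with the primary pollutants, then 8.80 and 8.87 in the evening controls, and 7.36 and 7.46 with the PCA pollutants. No groups overlapped and the order was the same as for PDCD4. Its difference was -1.09 ± 0.10 (adjusted p = 0.0230). KLHL24 (-0.96 ± 0.12), BCL2L11 (-0.83 ± 0.12), YPEL2 (-0.82 ± 0.10), YPEL5 (-0.77 ± 0.10) and DEPTOR (-0.72 ± 0.11) had lower values after either mixture, with primary responses from -0.40 to -0.17. BCL6 did not: its primary arrays (9.38 and 9.34) lay above the morning controls (9.14 and 9.15), its PCA arrays (8.58 and 8.69) below the evening controls (9.14 and 9.18), and the difference was -0.74 ± 0.10 (adjusted p = 0.0370). The FOXO letters GTAAACA were found in a promoter window of 5 of 53 lower genes (9.43%; BCL2L11, HBP1, KLHDC2, NR5A2 and TCP11L2), 0 of 9 higher genes and 3.61% of genes tested. Among the 8 called list members, only BCL2L11 had a match.

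The lowest differences, those of DHRS3 and RARB, belonged to retinoid genes. DHRS3 reduces retinaldehyde to retinol, BCO1 cleaves carotene to retinaldehyde, and RARB is a nuclear receptor of retinoic acid. DHRS3 was at 9.30 and 9.31 in the morning controls, 8.68 and 8.89 after the primary pollutants, 9.52 and 9.67 in the evening controls, and 7.57 and 7.85 after the PCA pollutants. Its primary response (-0.52) was the largest in size among the 77 genes, and the PCA arrays were still lower, without overlap. The difference was -1.36 ± 0.17 (adjusted p = 0.0359). RARB behaved otherwise, at 8.89 and 8.73, then 8.72 and 8.91 with the primary pollutants, 8.93 and 8.93 in the evening controls, and 7.66 and 7.64 with the PCA pollutants. Its primary arrays overlapped the morning controls (response 0.00 ± 0.09), and the difference (-1.28 ± 0.13, adjusted p = 0.0230) was the PCA response alone. BCO1 differed by -0.86 ± 0.12 (adjusted p = 0.0392), after a primary response of -0.46. The 22 retinoid genes as a list did not follow these 3: the median was -0.06 (0.00 without evening control replicate 2, -0.12 without evening control replicate 1 and 0.01 for the exposed arrays alone), and 3 were positive at an unadjusted p under 0.05, ALDH1A2, an enzyme that makes retinoic acid, among them (0.50 ± 0.11, adjusted p = 0.0968).

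One of the 4 RefSeq windows of RARB (chr3:25428013-25428312, plus strand) is shown because it holds a direct repeat of the retinoic acid response element type, with a spacer of 5 bases, at -53 to -37 (capitals). The element was searched once this window had been read. It was found, on either strand, in a window of 1 of 53 lower genes (1.89%), 0 of 9 higher genes and 33 of 13639 genes tested (0.242%). The same window holds the reverse complement of TGACATCA at -99.
RARB: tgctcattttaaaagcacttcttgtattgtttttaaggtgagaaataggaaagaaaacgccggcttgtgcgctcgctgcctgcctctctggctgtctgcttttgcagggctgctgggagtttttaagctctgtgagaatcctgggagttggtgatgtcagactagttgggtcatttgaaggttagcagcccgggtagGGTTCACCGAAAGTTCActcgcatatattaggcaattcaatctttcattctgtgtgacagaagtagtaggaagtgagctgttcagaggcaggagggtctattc

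**Figure D2:**
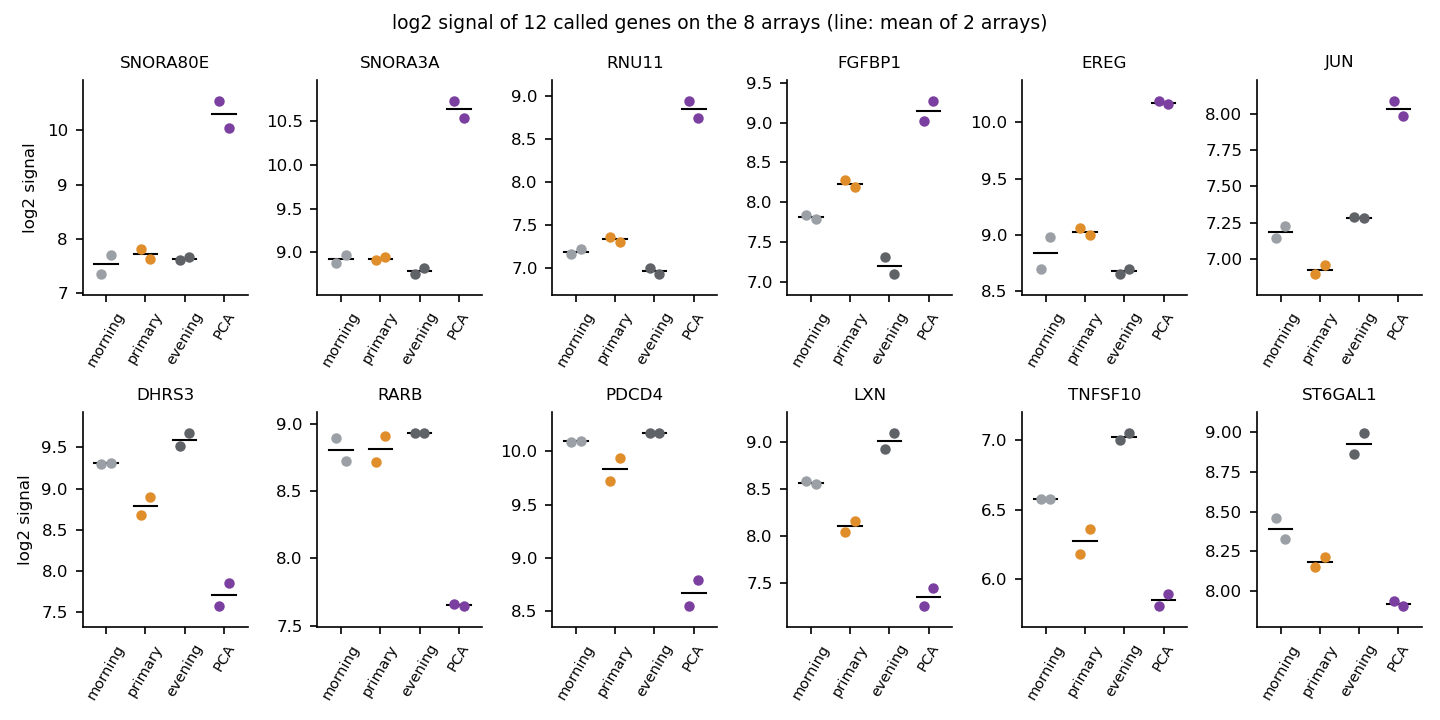
Log2 signal (y axis, a separate scale in each panel) of 12 called genes on the 8 arrays, with 2 points a group and a line at their mean. In every panel the PCA points lie beyond all others, as for SNORA3A (10.74 and 10.54) and RARB (7.66 and 7.64). The evening controls of FGFBP1, ST6GAL1, TNFSF10 and LXN sit farthest from the morning controls. The controls also do not overlap in other panels, such as DHRS3 and RNU11.

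Of the 77 genes, 26 belonged to at least 1 of 42 lists and 51 to none, and among those 51 were several of the lowest. TM4SF20, a tetraspanin-like membrane protein, was at 11.88 and 11.80 in the morning controls, 11.65 and 11.77 after the primary pollutants, 12.10 and 12.06 in the evening controls, and 10.69 and 10.84 after the PCA pollutants. The PCA arrays lay below all others, and its difference was -1.18 ± 0.12 (adjusted p = 0.0230). DAPK1, a kinase tied to cell death, was slightly higher after the primary pollutants (10.83 and 10.89 against 10.72 and 10.72) and lower after the PCA pollutants (10.002 and 9.94 against 10.78 and 10.80). Its difference was -0.96 ± 0.10 (adjusted p = 0.0230). TMEM37 (-1.15 ± 0.13), GPRC5B, an orphan receptor (-1.03 ± 0.13), TCP11L2 (-1.01 ± 0.10) and SYNE2, a nuclear envelope protein (-0.97 ± 0.12), completed the lowest values. Further called genes reached from the kinase FRK (-0.94 ± 0.12) to LITAF, a lysosomal membrane protein (-0.63 ± 0.09).

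Other lower genes had roles at the cell surface and in metabolism. CDH1, the adhesion protein E-cadherin, was at 10.15 and 10.08 in the morning controls, 9.70 and 9.71 after the primary pollutants, 10.35 and 10.35 in the evening controls, and 9.29 and 9.19 after the PCA pollutants. It was lower after both mixtures without overlap, and the difference was -0.70 ± 0.10 (adjusted p = 0.0392). It was the only 1 of 26 epithelial junction genes to be called, with 7 negative and 1 positive at an unadjusted p under 0.05 and a median of -0.19, which was -0.096 after quantile and -0.084 after cyclic loess normalization. CLDN1, a tight junction protein, was the positive one, at 0.64 ± 0.13 (adjusted p = 0.0861). Among genes named once their values were known, the receptor gene ERBB2 differed by -0.68 ± 0.10 (adjusted p = 0.0392), FGFR4, a fibroblast growth factor receptor, by -0.70 ± 0.11 (adjusted p = 0.0477), and FZD7, a Wnt receptor, by -0.87 ± 0.10 (adjusted p = 0.0316).

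Branched-chain amino acid and propionate breakdown genes had 1 of 22 called lower and 0 higher, 11 negative and 1 positive at an unadjusted p under 0.05, and a median of -0.26. The called gene, ALDH6A1, a dehydrogenase of valine breakdown, was at -0.96 ± 0.12 (adjusted p = 0.0359). MMUT, the mutase that follows propionate, was at -0.62 ± 0.12 (adjusted p = 0.0719). Of 26 cholesterol and fatty acid synthesis genes, ACSS2, which makes acetyl-CoA from acetate, was called (-0.65 ± 0.09, adjusted p = 0.0392), and 12 were negative and 0 positive at an unadjusted p under 0.05, with a median of -0.23 (-0.15 after cyclic loess). NRF2 antioxidant genes had 0 of 21 called by limma, 10 negative and 0 positive at an unadjusted p under 0.05, and a median of -0.24 (-0.15 after cyclic loess). TKT, of the pentose phosphate pathway, was at -0.46 ± 0.10 (adjusted p = 0.0863). Autophagy and lysosome genes had 0 of 38 called, 15 negative and 1 positive at an unadjusted p under 0.05, and a median of -0.23 (-0.14 after cyclic loess), and GABARAPL1, of the autophagosome membrane, was at -0.81 ± 0.16 (adjusted p = 0.0776).

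Histone and mitosis genes were the lower cell cycle classes. Of 52 replication-dependent histone genes, 1 was called lower and 0 higher, but 32 were negative and 2 positive at an unadjusted p under 0.05, and the median, -0.42, was the lowest of any list. The called gene, H2AC4, was at 10.59 and 10.60 in the morning controls, 10.55 and 10.69 after the primary pollutants, 10.61 and 10.56 in the evening controls, and 9.86 and 9.90 after the PCA pollutants. The first 6 arrays overlapped, and the difference was -0.73 ± 0.11 (adjusted p = 0.0397). These genes are near-identical copies, so their probe sets may share signal. Of 32 G2 and M phase genes, ASPM, a spindle pole protein, was called (-0.79 ± 0.11, adjusted p = 0.0389), 12 were negative and 0 positive at an unadjusted p under 0.05, and the median was -0.20. Here the controls drifted in the other direction: the median drift was -0.25, and the exposed arrays alone gave -0.49. G1/S and DNA replication genes showed no such shift, with 0 of 38 called, 1 positive and 0 negative at an unadjusted p under 0.05, and a median of -0.0033 that changed sign under 3 of 4 scalings.

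Interferon-induced genes had 1 of 36 called, PARP9, an ADP-ribosyltransferase family member (-0.93 ± 0.14). Its adjusted p, 0.0485, was with that of the adaptor gene GRB7 (-0.63 ± 0.10) the nearest to the threshold. In this list 11 were negative and 3 positive at an unadjusted p under 0.05, and the median was -0.15 (-0.24 after quantile or cyclic loess normalization). OAS1, an antiviral enzyme whose transcript was also followed by PCR, went the other way. It was at 10.07 and 10.005 in the morning controls, 10.82 and 10.65 after the primary pollutants, 9.89 and 9.97 in the evening controls, and 11.26 and 11.16 after the PCA pollutants. Exposed arrays were above their controls in both runs. The PCA response (1.28) exceeded the primary response (0.70) by 0.59 ± 0.12, which did not pass (adjusted p = 0.0853). ATP8B1, a phospholipid flippase also measured by PCR, was at -0.96 ± 0.19 (adjusted p = 0.0776), with a PCA response of -1.56 and a primary response of -0.60. ACTB, the reference gene there, differed by 0.11 ± 0.13. By PCR, the paper found that OAS1, ATP8B1 and GFPT2 each responded more strongly to the PCA mixture, a contrast significant in its t-tests. On the arrays, none of these PCR genes was called for the difference.

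**Figure D3:**
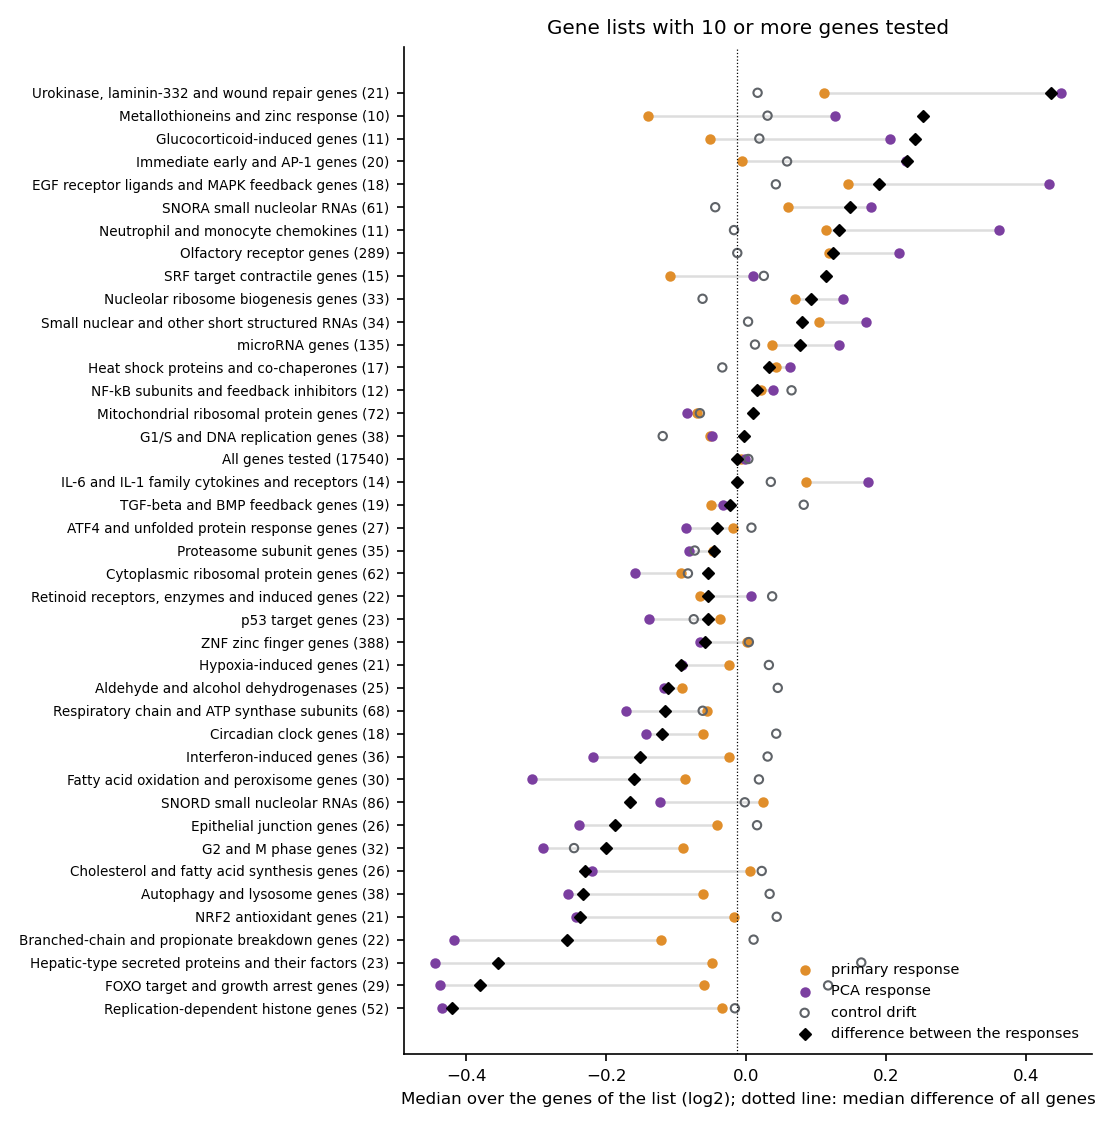
Median over the genes of each list (x axis, log2) of the primary response, the PCA response, the control drift and the difference, with the number of genes tested in brackets, and the same for all genes. Lists with 10 or more genes tested are drawn. The PCA medians run from -0.44 (hepatic-type genes) to 0.45 (wound repair genes), while the control drift reaches 0.16 for hepatic-type genes and -0.25 for G2 and M phase genes.

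Few genes responded in opposite directions by more than their error. Among all genes tested, 843 had an unadjusted p under 0.05 for both responses, of which 789 had the same sign (681 with the larger PCA response) and 54 opposite signs. Of the 77 called genes, 30 had such a primary response, 24 with the sign of the PCA response and 6 against it: JUN, SNORD114-2, KCNK5, BCL6, GRB14 and RGL1. The limma adjusted p of those 6 primary responses ran from 0.370 to 0.588, and choosing genes by the difference favoured opposite signs. SNORD114-2 was at 5.72 and 5.55 in the morning controls, 5.19 and 5.23 after the primary pollutants, 5.35 and 5.44 in the evening controls, and 6.03 and 5.96 after the PCA pollutants. All 8 signals were low, and the exposed arrays lay on opposite sides of the controls. KCNK5, a potassium channel, had the reverse arrangement, at 8.30 and 8.21, then 8.42 and 8.50, 8.40 and 8.37, and 7.71 and 7.83. Its difference was -0.81 ± 0.11 (adjusted p = 0.0359). GRB14, an adaptor of the insulin receptor, differed by -0.66 ± 0.10 and RGL1, an exchange factor for Ral, by -0.71 ± 0.10 (adjusted p = 0.0392 for each). C21orf91 (-0.62 ± 0.10, adjusted p = 0.0507), NCAM2 (0.92 ± 0.14, adjusted p = 0.0517), CRY1, a clock repressor (-0.64 ± 0.11, adjusted p = 0.0602), and GJA1, a gap junction protein (0.61 ± 0.10, adjusted p = 0.0607), had opposite responses but missed the threshold. None of the 77 had the larger response to the primary pollutants. At an unadjusted p under 0.05 and 1.5-fold, 10 of 363 genes did, CA5B (-0.61 ± 0.12, primary response 0.43) and CX3CR1 (-0.71 ± 0.18, primary response 0.45) among them, named once their values were known.

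The control drift is the evening minus the morning control, and it enters the difference with a minus sign: the difference is (PCA minus primary) minus drift. Drift was small for most genes. limma called 0 genes (0%), with 870 (4.96%) at an unadjusted p under 0.05 and 0 called under a trended and robust prior, and the median size was 0.07, against 0.14 for PCA minus primary. It held 20.8% of the summed variance of both terms over genes. Among the 77 genes, drift made up a median of 16.4% of the difference, from -19.9% (ASPM, where it ran the other way) to 66.9% (ST6GAL1). It added to the difference in 70 genes, over 30% of it in 18, and was larger than the exposed term in 2. Since the controls helped to choose the 77, a drift opposed to the exposed arrays was favoured by the choice, and 34 of them had a drift at an unadjusted p under 0.05. Scaled to ribosomal protein genes, the median share was 28.3%.

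Taking the exposed arrays alone, PCA minus primary was called for 208 genes (1.19%), 53 of the 77 among them. All 16 higher genes passed and 37 of the 61 lower ones. The other 24, all lower, fell short of the 1.5-fold limit on the exposed arrays alone, and 23 of them still had an adjusted p under 0.05 there, all but ST6GAL1. Some missed the limit narrowly with little drift, such as ACSS2, with an exposed term of -0.57 and 12.2% of its difference in drift. ST6GAL1, a sialyltransferase, was at 8.46 and 8.33 in the morning controls, 8.15 and 8.22 after the primary pollutants, 8.86 and 8.99 in the evening controls, and 7.93 and 7.90 after the PCA pollutants. The controls were farther apart than the exposed groups, with a drift of 0.53 against an exposed term of -0.26, and the difference was -0.80 ± 0.12 (adjusted p = 0.0392). TNFSF10, the death ligand TRAIL, was at 6.58 and 6.57, then 6.18 and 6.36, 6.999 and 7.05, and 5.80 and 5.89 in the same order. Its drift (0.45) and exposed term (-0.42) were about alike in size and gave -0.87 ± 0.12 (adjusted p = 0.0359). LXN, a carboxypeptidase inhibitor, had a drift of 0.44 in a difference of -1.20 ± 0.14, FMO5, a monooxygenase, 0.40 in -0.85 ± 0.12, and ELMO1, a regulator of cell movement, 0.35 in -0.79 ± 0.11. FGFBP1 was the only higher gene with over 30% in drift (40.0%, a drift of -0.61).

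**Figure D4:**
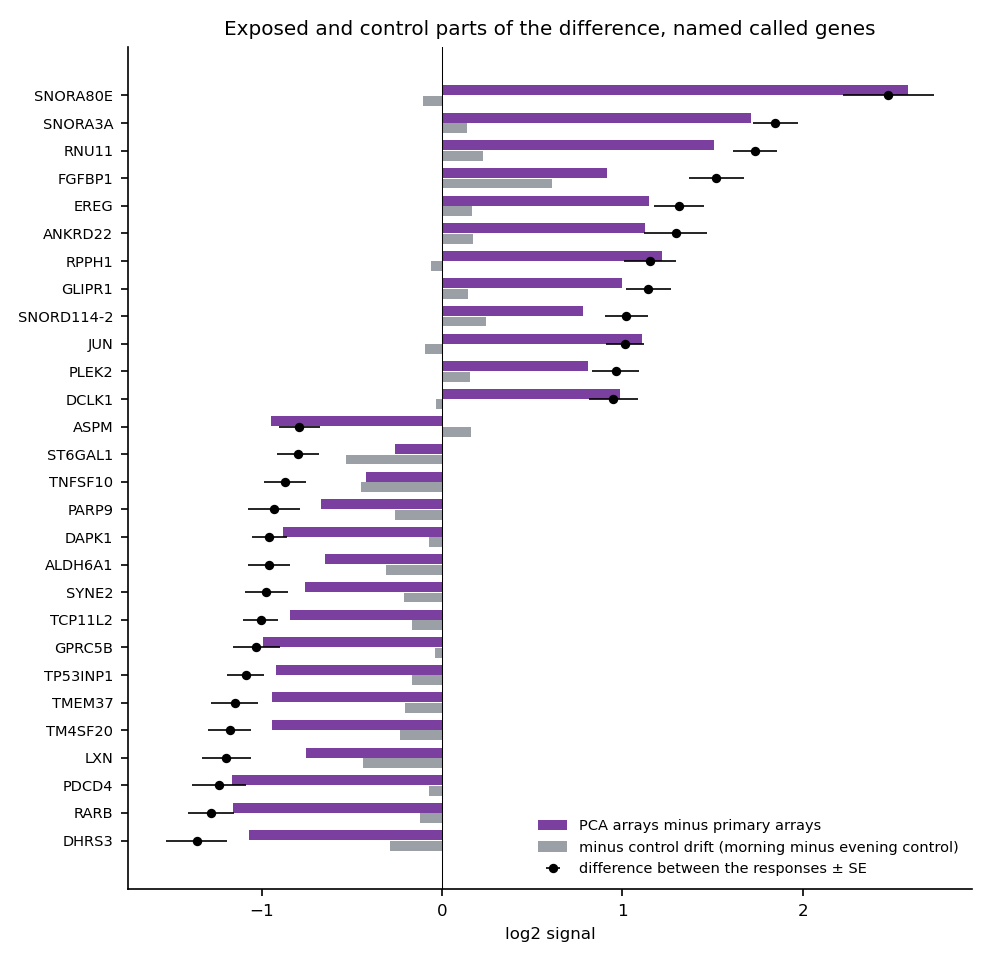
The 2 terms of the difference (x axis, log2) for named called genes: PCA minus primary (purple bars), minus control drift (grey bars) and their sum with its standard error (black points). For SNORA3A and PDCD4 the purple bar nearly reaches the point, whereas for ST6GAL1 the grey bar (-0.53 against -0.26) is longer than the purple one.

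Several genes with a small unadjusted p for drift were not called for the difference. They were picked by that p from all genes tested, and limma called 0 genes for drift after adjustment. SAMD9L, an interferon-induced antiviral gene, was at 5.73 and 5.59 in the morning controls, 5.62 and 5.66 after the primary pollutants, 6.17 and 6.26 in the evening controls, and 5.64 and 5.69 after the PCA pollutants. The evening controls alone stood apart, so its difference of -0.53 ± 0.11 (adjusted p = 0.0861) came from the drift (0.55), with an exposed term of 0.02. C3, the central complement component, had a drift of 0.50 and an exposed term of 0.10, and CEACAM1, an adhesion molecule, 0.57 and 0.06. In EMP1, an epithelial membrane protein, the evening controls were low (drift -0.60) and the difference was 0.67 ± 0.14 (adjusted p = 0.0848). Among hepatic-type secreted proteins and their factors, 0 of 23 were called, 12 were negative and 1 positive at an unadjusted p under 0.05, and the median difference of -0.35 came with a median drift of 0.16 and an exposed term of -0.05, and was -0.24 without primary replicate 2. FGA, a fibrinogen chain, had a drift of 0.39 in a difference of -0.65 ± 0.12 (adjusted p = 0.0664), and C5, another complement component, 0.46 in -0.64 ± 0.14 (adjusted p = 0.0881). Circadian clock genes, for which time of day is the usual variable, had 0 of 18 called, 3 positive and 5 negative at an unadjusted p under 0.05, and a median difference of -0.12 with a median drift of 0.04 and an exposed term of -0.02. The clock median was -0.20 without primary replicate 1, -0.05 without PCA replicate 1 and -0.07 scaled to ribosomal protein genes. In FOXO target genes the drift was 0.12 and in histone genes -0.02, with exposed terms of -0.34 and -0.40.

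The difference also moved with signal strength. With all genes ranked by mean signal and cut into 4 bins of 4385, its median was 0.09 in the dimmest bin, then 0.04 and -0.07, and -0.11 in the brightest. Olfactory receptor genes, which encode smell receptors and had a median log2 signal of 5.72 (7.52 over all genes), had a median difference of 0.12 over 289 genes with 0 called, 33 positive and 5 negative at an unadjusted p under 0.05. This median was 0.04 after quantile, 0.03 after cyclic loess and 0.08 after median centring, and 0.05 without primary replicate 2 and 0.06 without evening control replicate 2. The 16 higher genes were spread over the 4 bins (3, 3, 5 and 5), and 55 of the 61 lower genes lay in the upper 2 (24 and 31). The part of the narrower spread of the PCA arrays in these values was not tested.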

How the data were processed

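RNA of 8 cultures was hybridised to Affymetrix Human Gene 1.0 ST arrays. The authors deposited log2 values after robust multi-array averaging (background correction, quantile normalization and probe set summary), and the submitters' notes name Partek 6.4. Depth does not apply to arrays, and 2 arrays a group limit the precision. Of 28869 probe sets, 25412 reached a signal of 30 on at least 1 array and were tested. In the platform annotation 19310 probe sets have 1 symbol, 1752 several and 7807 none, and each gene is represented by the brightest, on average, of its 1-symbol probe sets. Means of the 4 groups were fitted with limma 3.58.1 in R 4.3.3 (lmFit and eBayes, 4 residual degrees of freedom) over all 8 arrays, with Benjamini-Hochberg adjustment over all probe sets tested. Of 117 probe sets called, 77 stand for genes and 40 (36 higher, 4 lower) have no gene of their own. The code was tested on simulated data. The genes, lists and alternatives were chosen with earlier results of these data known. Genes were named as the 12 largest differences each way that kept 1 sign in all 16 choices of 1 array a group, the 10 opposite-sign genes of smallest p, those with the largest drift, up to 4 of each list and the PCR genes. Motifs were searched on both strands of RefSeq promoter windows, which 13639 genes tested have. Letters of the cyclic AMP response element, NF-kB, an interferon element, E2F and the E-box were searched too. Interferon element letters were found for 22.2% of higher genes, 9.43% of lower genes and 8.95% of genes tested. For NF-kB the shares were 11.1%, 15.1% and 9.68%, and for the E-box 0%, 9.43% and 11.2%. The cyclic AMP and E2F letters were found for 0 called genes, against 3.21% and 2.01% of genes tested.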

Additional observations from a re-analysis of the deposited data

Results flagged for a closer look

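The effect of exposure differed between the PCA and the primary run, by the test of the difference itself, in 77 genes, 16 higher and 61 lower. Among them, 6 had responses of opposite sign with an unadjusted p under 0.05 in each: JUN (1.01), SNORD114-2 (1.02), KCNK5 (-0.81), BCL6 (-0.74), GRB14 (-0.66) and RGL1 (-0.71), all log2 differences with a limma adjusted p under 0.05. None of these 6 primary responses passed adjustment (limma adjusted p from 0.370 to 0.588). A primary response opposed to the PCA response enlarges the difference, so the choice of genes favoured opposite signs. The part of mixture, time of day and run in these differences cannot be told apart.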

How the results depend on the processing

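The number of genes called for the difference (77) was 16 with no filter on low signal (8 higher and 8 lower, against 16 and 61), 247 with a minimum signal of 100, 278 with a trended and robust prior, 1 with the methods' analysis of variance after Benjamini-Hochberg (PCSK5, named after its value was seen, which is not among the 77, so that 0 of these passed), 0 with treat against the fold limit (63 past the fold at its unadjusted p), 253 at an adjusted p under 0.1, 363 at an unadjusted p under 0.05 and 208 for PCA arrays less primary arrays. Leaving out 1 array gave 0 to 3. With the replicate number as a block it was 2 (RNU11 and SNORA3A), but the numbers do not pair the samples (correlations of deviations from -0.124 to 0.0545). Other scalings gave 59 to 97, with 66.2% lower after cyclic loess against 79.2%. The primary response had 6 genes called under the trended and robust prior, and the median drift share was 28.3% when scaled to ribosomal protein genes. C3 (0.10), CEACAM1 (0.065) and SAMD9L (0.021) changed sign without the controls. None of the 77 called genes, which were chosen on these same arrays, changed sign under any alternative run. The median standard error of the difference, 0.13, is the precision that 2 arrays a group gave here.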

Other observations

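Metallothionein genes, which bind zinc and other metals, had a median difference of 0.25 over 10 genes with 0 called by limma and 3 positive and 0 negative at an unadjusted p under 0.05. This median was 0.38 without primary replicate 1, 0.12 without primary replicate 2 and 0.17 without morning control replicate 2. MT2A was at 11.17 and 11.30 in the morning controls, 11.03 and 10.85 after the primary pollutants, 11.31 and 11.27 in the evening controls, and 11.49 and 11.36 after the PCA pollutants. Its primary response was -0.29 and its PCA response 0.14, and the difference of 0.43 ± 0.13 did not pass (adjusted p = 0.163). Of 11 glucocorticoid-induced genes, 0 were called, 3 were positive and 0 negative at an unadjusted p under 0.05, and the median was 0.24 (0.16 without primary replicate 2), with MT2A and DUSP1 also on other lists.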
